A study of Mus musculus with 8 samples.

Results

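The SOCS family of cytokine signalling inhibitors has 8 genes in the mouse, Socs1 to Socs7 and Cish, and all 8 were found by gene symbol among the 55359 genes measured. All 8 also passed the filter on low values that left 16309 genes for testing. Total RNA was sequenced from bone-marrow-derived macrophages (BMDMs) of wildtype C57BL/6 mice of both sexes, grown with M-CSF and GM-CSF and isolated by their surface CD45, in 4 groups of 2 samples each, numbered 1 and 2. Ctrl held naïve Mϕ left unstimulated. LPS held naïve Mϕ given 100 ng/mL lipopolysaccharide together with 100 U/mL IFNγ for 6 h, so the group name covers both agents. Eff held Mϕ that had spent 16 h with apoptotic fibroblasts, 5 per macrophage, in 10 nM dimerizer, and LPSEff held such efferocytic Mϕ given the same LPS/IFNγ stimulus afterwards. The fibroblasts were a single clone of NIH-3T3 cells, a mouse line, carrying a caspase-8 domain that the dimerizer activates, so fibroblast RNA and macrophage RNA align to the same genes. Nothing in the sample descriptions says that the 2 samples of a group came from separate animals or cultures, so the p-values measure the spread between these samples, which may be technical.

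SOCS proteins are induced by the cytokine signals that they restrain. A cytokine receptor activates its JAK kinases, the kinases activate STAT transcription factors, and the STATs switch on genes that include several SOCS genes. SOCS1 and SOCS3 block the JAK kinases themselves, and the SOCS box shared by all members recruits a cullin ubiquitin ligase through elongins B and C. In Mϕ, SOCS1 is best known as the brake on IFNγ signalling and SOCS3 as the brake on signalling through gp130, the receptor chain for IL-6, while CIS (from Cish) and SOCS2 are classical products of STAT5.

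The RefSeq promoter set (build GRCm38.p6, 250 bases before to 50 after each start) held 4 members, Socs1, Socs3, Socs4 and Cish, and 3 of them carried one of the motifs searched. The motifs were TTCNNNGAA, the letters that STAT dimers recognise, which is its own reverse complement, and GAAANNGAAA on either strand, the core that interferon regulatory factors recognise. The second motif was chosen after the sequences had been read. The matched stretches of these 3 genes are shown because they held a motif, with the motif letters in capitals, on the strand of each gene. The 3 were also the most abundant members in stimulated Mϕ.
Socs1: ttgccgGAAAGAGAAACCGAAAgcgggg
Socs3: ccagccTTCTTAGAAgggagg
Cish: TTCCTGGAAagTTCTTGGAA

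In Socs1 (chr16:10785598-10785625 of GRCm38.p6), 2 overlapping copies of GAAANNGAAA began 83 and 77 bases before the start, and TTCNNNGAA was not in the window. In Socs3 (chr11:117969506-117969526) 1 copy of TTCNNNGAA began 154 bases before the start. In Cish (chr9:107296659-107296678) 2 copies of TTCNNNGAA stood at bases 1 to 9 and 12 to 20 after the RefSeq start. Socs4 held neither motif. Of all 32851 promoters in the set, 8.30% held at least 1 copy of TTCNNNGAA and 0.457% at least 2, while 3.44% held at least 1 copy of GAAANNGAAA and 0.225% at least 2. These matches describe letters in a window around 1 annotated start per gene, and no binding was measured.

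The genes lie on 7 chromosomes of GRCm39. Socs1 is at chr16:10600104-10603875 (minus strand), Socs2 at chr10:95219523-95253929 (minus), Socs3 at chr11:117856905-117860898 (minus) and Socs4 at chr14:47514368-47533559 (plus). Socs5 is at chr17:87414674-87445267 (plus), Socs6 at chr18:88683348-88945635 (minus), Socs7 at chr11:97253032-97289368 (plus) and Cish at chr9:107173225-107179983 (plus).

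Values are normalized counts, the read count of a gene divided by 1 size factor per sample. The recovered reads numbered 3481288 to 12020918 per sample, with the fewest in Ctrl replicate 1, and each member rested on at least 100 reads in every sample (Socs6 had the fewest). All 9 macrophage markers checked were above 3 reads in every sample. Fibroblast markers summed to 166 to 833 normalized counts in the naïve samples and to 1968 to 5780 in the efferocytic samples, and 6 of the 11 tested were called higher in Eff than in Ctrl and 7 in LPSEff than in LPS. Dendritic cell markers (Itgax, Flt3, Ccr7, Zbtb46, Cd209a, Xcr1) summed to 4423 and 9345 in Ctrl, 10431 and 22910 in LPS, against 2629 and 5935 in Eff and 8144 and 12513 in LPSEff. That sum was higher in replicate 2 of every group, and lower in the efferocytic than in the naïve sample of each number. Most of it was Itgax and Ccr7. Ccr7 had 1839 and 2128 in Ctrl and 7649 and 14409 in LPS, so it rose with stimulation. Itgax had 2386 and 6771 in Ctrl and 2150 and 6898 in LPS, and Cd209a reached at most 8.10 in any sample. The dendritic sum is therefore not a measure of dendritic cells. Neutrophil markers (S100a8, S100a9, Ly6g, Cxcr2, Mpo, Elane) summed to 853 and 613 in Ctrl and 1333 and 1572 in LPS. The sum was 1234 and 1020 in Eff and 1934 and 1501 in LPSEff, so higher in the stimulated sample of each number. Nearly all of it was S100a8 and S100a9. In any sample Ly6g reached at most 19.4, Cxcr2 5.26, Mpo 32.3 and Elane 10.3, so the sum is not a measure of neutrophils. The part of cells carrying these markers in the SOCS results was not tested. In bulk RNA fewer cells of a type cannot be told apart from less RNA per cell. Defining lymphocyte markers were near 0, with a sum of 2.54 to 18.1.

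In response to LPS/IFNγ, 5 of the 8 SOCS genes rose in naïve Mϕ and 1 fell. Socs1 rose most, followed by Socs3, Socs2, Socs7 and Cish, and Socs6 fell. These calls are adjusted p-values under 0.05 from limma over all tested genes, of which 12.4% were called higher and 11.6% lower in this comparison. A share of 5 of 8 higher is thus well above that of all genes, and 1 of 8 lower is near it. The members had been named with results of these samples in view, so the counts are descriptions.

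Socs1 had 219 and 263 normalized counts in Ctrl, 1971 and 1715 in LPS, against 439.9 and 275 in Eff and 2599 and 1578 in LPSEff, each pair given as replicates 1 and 2. Every stimulated sample lay above every unstimulated one, and LPSEff spanned the LPS values. The rise was 7.63-fold in naïve Mϕ (log2 fold change 2.93 ± 0.30, SE, adjusted p = 0.000421) and 5.81-fold in efferocytic Mϕ (2.54 ± 0.30, adjusted p = 0.000918). Of the 16309 genes, 380 had a higher log2 fold change than Socs1 in LPS vs Ctrl.

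Socs3 had 1460 and 943 normalized counts in Ctrl, 5647 and 4393 in LPS, against 2352 and 1221 in Eff and 8578 and 5122 in LPSEff. Replicate 1 was the higher sample of every group, and the stimulated samples did not overlap with the unstimulated ones. Socs3 rose 4.24-fold in naïve Mϕ (2.08 ± 0.38, adjusted p = 0.00607) and 3.91-fold in efferocytic Mϕ (1.97 ± 0.38, adjusted p = 0.00899). Its 2 samples differed within every group by more, relative to their mean, than those of Cish.

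Cish had 1163 and 1021 normalized counts in Ctrl, 1901 and 1789 in LPS, against 802 and 831 in Eff and 1643 and 1458 in LPSEff. The groups did not overlap with each other in any of the comparisons made, and Eff was the lowest. The rise was 1.69-fold in naïve Mϕ, the smallest of those called there (0.76 ± 0.17, adjusted p = 0.0139) and 1.90-fold in efferocytic Mϕ (0.92 ± 0.17, adjusted p = 0.00699). Gm17041, a long non-coding gene on the opposite strand that shares exonic bases with Cish (chr9:107177579-107179037), had 170.1 to 450.1 normalized counts and rose alongside it (0.92, adjusted p = 0.0196, and 1.01, adjusted p = 0.0150). Whether the counting was matched to the strand of the library is not stated in the sources used here, so reads of these 2 genes may not be fully separated.

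Socs2, a regulator of growth hormone signalling, had 261 and 312 normalized counts in Ctrl, 537 and 1066 in LPS, against 169 and 199 in Eff and 359 and 363 in LPSEff. LPS replicate 2 stood far above every other sample. The highest dendritic cell marker sum, mostly Itgax and Ccr7, was also in that sample. Socs2 rose 2.64-fold in naïve Mϕ (1.40 ± 0.31, adjusted p = 0.0130). In efferocytic Mϕ the difference was 1.96-fold (0.97 ± 0.31, adjusted p = 0.0608), which became a call with the replicate number as a block (adjusted p = 0.00439). Without a block it was also called in edgeR (adjusted p = 0.0353), in DESeq2 (adjusted p = 0.0137) and in limma with only the groups compared (adjusted p = 0.0235).

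Socs7, which has been linked to insulin signalling, had 316 and 384 normalized counts in Ctrl, 724 and 792 in LPS, against 278 and 308 in Eff and 499 and 501 in LPSEff. The 4 groups did not overlap in any pair compared. Socs7 rose 2.17-fold in naïve Mϕ (1.12 ± 0.18, adjusted p = 0.00359) and 1.71-fold in efferocytic Mϕ (0.77 ± 0.18, adjusted p = 0.0201).

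Socs6, whose protein binds receptor tyrosine kinases such as KIT, was the member that fell. It had 328 and 369.5 normalized counts in Ctrl, 129 and 151 in LPS, against 305 and 345 in Eff and 132 and 178 in LPSEff. The stimulated samples all lay under the unstimulated ones, 2.48-fold lower in naïve Mϕ (-1.31 ± 0.22, adjusted p = 0.0043) and 2.11-fold lower in efferocytic Mϕ (-1.08 ± 0.22, adjusted p = 0.0116). Kit itself, the gene called lower in a list of docked signalling proteins, was also lower after stimulation, with 923 ± 84.2 normalized counts in Ctrl and 253 ± 22.9 in LPS (SD, n = 2).

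Socs4 and Socs5, which have been linked to signalling by the EGF receptor, were not called in either stimulation comparison with the deposited size factors and no block. Socs4 had 550.3 and 615 normalized counts in Ctrl, 379 and 572 in LPS, against 510.0 and 584 in Eff and 301 and 391 in LPSEff. Its LPS and Ctrl samples overlapped (-0.32 ± 0.24, adjusted p = 0.398), while LPSEff lay under Eff in both samples (-0.67 ± 0.24, adjusted p = 0.0951, and 0.00563 with the replicate block). Socs5 had 239.9 and 355 normalized counts in Ctrl, 184 and 199 in LPS, against 271 and 497 in Eff and 309 and 366 in LPSEff. LPS held its lowest values (-0.61 ± 0.31, adjusted p = 0.211, and 0.0274 with the block), whereas LPSEff fell between the Eff samples (-0.13 ± 0.31, adjusted p = 0.831).

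**Figure D1:**
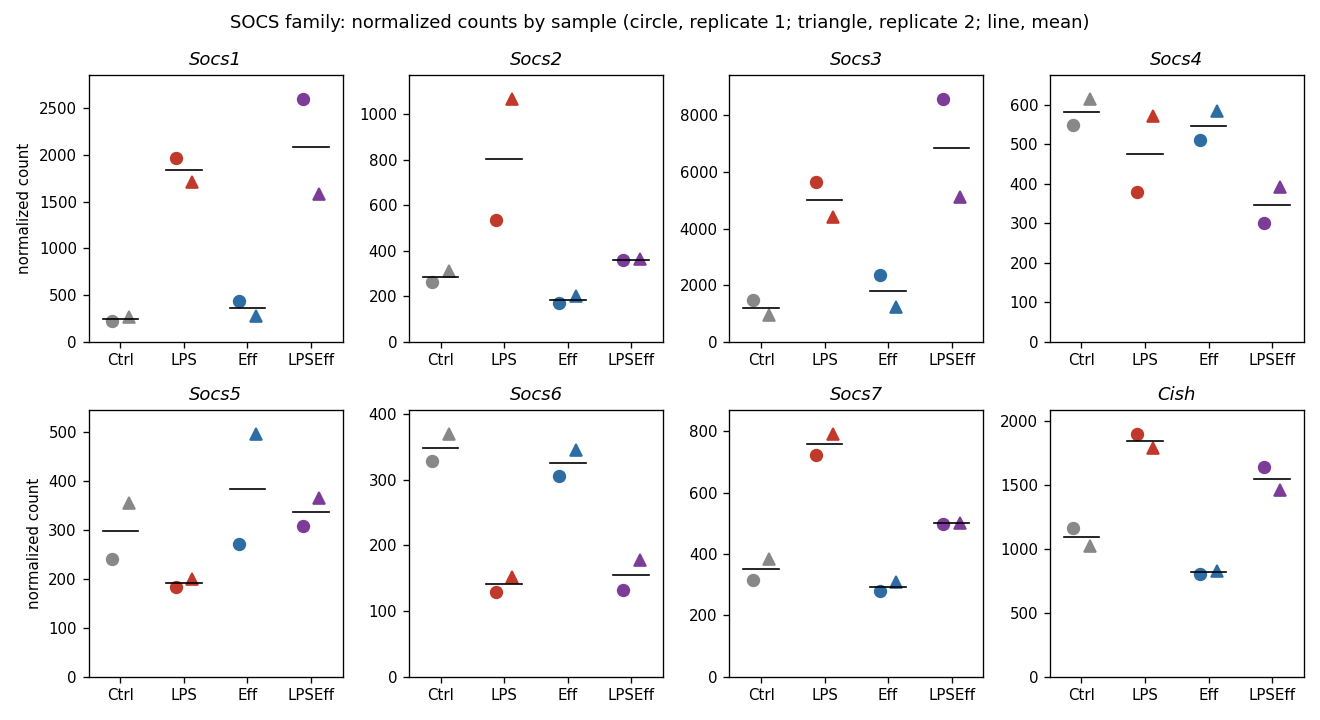
Normalized counts of the 8 SOCS genes (vertical axes, linear, from 0, a separate scale per gene) in Ctrl, LPS, Eff and LPSEff, with a circle for replicate 1, a triangle for replicate 2 and a line for the mean of the 2. Socs1 and Socs3 stand far higher in both stimulated groups, Socs6 lower, and the 1066 of Socs2 in LPS replicate 2 exceeds its other values.

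In efferocytic Mϕ, 5 of the 8 members were called with stimulation, against 10.7% of all genes called higher and 8.95% lower. They were Socs1, Socs3, Socs7 and Cish, which rose, and Socs6, which fell. With the replicate number as a block the counts were 7 in each comparison, 5 higher and 2 lower, against 20.5% of genes higher and 20.7% lower in LPS vs Ctrl and 19.0% higher and 18.0% lower in LPSEff vs Eff. Leaving out single samples took calls away in efferocytic Mϕ. Calls over all genes also fell in each fit without an Eff or LPSEff sample, so the losses were not particular to the SOCS genes. Among the members, Socs7 (adjusted p of 0.0712 to 0.129) lost its call without any 1 of the 4 samples, Socs6 without Eff replicate 1, Eff replicate 2 or LPSEff replicate 1 (0.0509 to 0.0833), Cish without Eff replicate 1 or LPSEff replicate 1 (0.0572 and 0.0568), and Socs3 without Eff replicate 2 or LPSEff replicate 1 (0.0555 and 0.0632). In naïve Mϕ, Socs2 lost its call without Ctrl replicate 1 (1.27, adjusted p = 0.084) and Cish without Ctrl replicate 2 (0.66, adjusted p = 0.0906) or LPS replicate 1 (0.71, adjusted p = 0.058). Directions of the called members were kept in each of these fits.

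**Figure D2:**
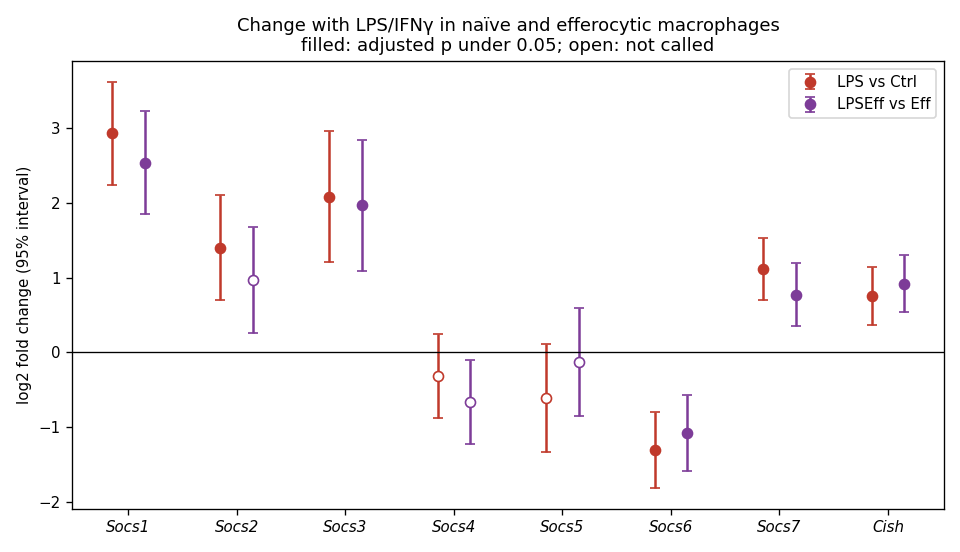
Log2 fold change with LPS/IFNγ (vertical axis) of each SOCS gene in naïve Mϕ (LPS vs Ctrl, red) and efferocytic Mϕ (LPSEff vs Eff, purple), with 95% intervals from limma. Filled points have an adjusted p under 0.05. Socs1 is highest at 2.93 and 2.54, Socs6 is lowest at -1.31 and -1.08, and the intervals of the 2 contexts overlap for all 8 genes.

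The level of the median gene bears on the smaller changes. With the deposited size factors the median log2 fold change of all genes was -0.01 in LPS vs Ctrl and 0.01 in LPSEff vs Eff, and 51.5% and 54.6% of the calls were higher. When the samples were rescaled to equal totals the medians became -0.40 and -0.44, and 24.8% and 21.8% of the calls were higher, while quantile normalization gave 44.5% and 43.9%. Under equal totals Socs1, Socs2, Socs3, Socs7 and Cish kept positive log2 fold changes and Socs6 a negative one. Cish then lost its call in naïve Mϕ (0.36, adjusted p = 0.157) and in efferocytic Mϕ (0.47, adjusted p = 0.0737), and Socs7 lost it in efferocytic Mϕ (0.32, adjusted p = 0.154). Equal totals also added calls for lower levels, of Socs4 (-0.72, adjusted p = 0.0244) and Socs5 (-1.01, adjusted p = 0.0278) in naïve Mϕ and of Socs4 in efferocytic Mϕ (-1.12, adjusted p = 0.00441). With quantile normalization Cish was not called in naïve Mϕ (0.33, adjusted p = 0.23) and Socs3 was not called in efferocytic Mϕ (1.32, adjusted p = 0.0634), whereas Socs2 (0.98, adjusted p = 0.0187) and Socs4 (-0.77, adjusted p = 0.0184) were called in efferocytic Mϕ.

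Whether the response to LPS/IFNγ differed between efferocytic and naïve Mϕ was tested by the interaction, the log2 fold change in efferocytic minus that in naïve Mϕ. No member was called, and 0.00% of all genes were. At an unadjusted p under 0.05 there were 311 genes in limma, 1052 with the replicate block, 369 in edgeR and 244 in DESeq2, with 0 after adjustment in each. DESeq2 with the block called 29 genes (0.178%), no SOCS gene among them, while edgeR with the block called 0, with 1105 at an unadjusted p under 0.05. The interaction was -0.39 for Socs1 (95% interval -1.37 to 0.58), -0.12 for Socs3 (-1.36 to 1.12), -0.43 for Socs2 (-1.43 to 0.57) and 0.16 for Cish (-0.38 to 0.71). It was -0.35 for Socs7 (-0.94 to 0.25), -0.35 for Socs4 (-1.14 to 0.45), 0.48 for Socs5 (-0.54 to 1.50) and 0.23 for Socs6 (-0.49 to 0.95).

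Within a sample, members were compared by normalized counts per kb of the canonical transcript. Socs3 was the highest of the 8 in every group, at 451 ± 138 in Ctrl, 1885 ± 333 in LPS, 671 ± 300.3 in Eff and 2572 ± 918 in LPSEff (SD, n = 2). Cish followed at 299.5 ± 27.6 in Ctrl and 224 ± 5.59 in Eff, whereas Socs1 took that place in LPS (565 ± 55.5) and LPSEff (641 ± 222). The LPS samples of Socs1, from 526 to 605, lay above those of Cish, from 491 to 521, by less than their own spread, and in LPSEff the spread of Socs1, from 484 to 797, also lay above that of Cish, from 400 to 450.4, without overlap. In Ctrl, Socs2 (113 ± 14.3), Socs4 (84.5 ± 6.61), Socs1 (73.9 ± 9.58), Socs5 (62.4 ± 17.0), Socs6 (57.3 ± 4.88) and Socs7 (47.6 ± 6.52) came next. Among the last 5 of these, Socs5 differed from each of Socs1, Socs6 and Socs7 by less than the larger of the 2 SDs. Socs2 has 52 annotated transcripts, and with all its exons as the length it was last in Ctrl, so its place in the order depends on the transcript taken.

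Together, Socs1, Socs3 and Cish made up 64.1% and 73.9% of the summed family level per kb in the Ctrl samples and 67.8% and 81.3% in the Eff samples. After stimulation the share was 79.8% and 88.4% in LPS and 88.3% and 92.9% in LPSEff. The whole sum was 1114 to 1523 per kb in the 4 unstimulated samples and 3181 to 4808 in the 4 stimulated ones. Socs6 went from 4.26% and 5.45% of the sum in Ctrl to 0.579% and 0.744% in LPS.

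**Figure D3:**
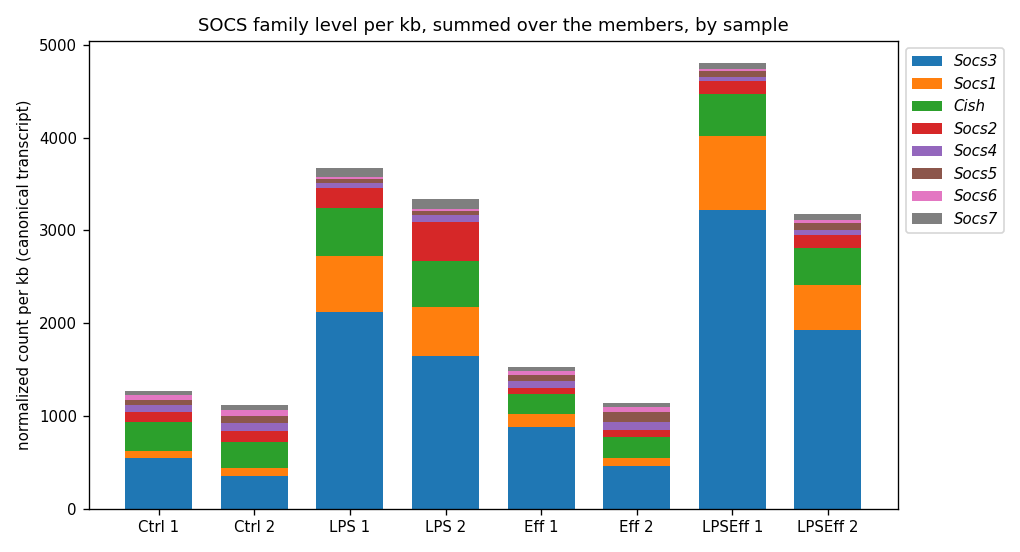
Summed level of the SOCS family per kb of canonical transcript (vertical axis, normalized count per kb, from 0) in each of the 8 samples, with 1 colour per gene. The bars of the 4 stimulated samples reach 3181 to 4808, against 1114 to 1523 without stimulation, and Socs3 (blue) is the largest segment of each.

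For efferocytosis itself, no SOCS gene was called in Eff vs Ctrl, in which 0.251% of all genes were called, or in LPSEff vs LPS, in which 0.773% were. In unstimulated Mϕ the log2 fold changes ran from -0.63 for Socs2 (± 0.31, adjusted p = 0.891) to 0.53 for Socs1 (± 0.30, adjusted p = 0.969) and Socs3 (± 0.38, adjusted p = 0.999). Cish was at -0.42 (95% interval without adjustment -0.80 to -0.03, adjusted p = 0.752). Both Eff samples lay under both Ctrl samples for Cish, Socs2 and Socs7, and above them for Socs1. With 2 samples against 2 such separation has a probability of 0.333 without any difference, and the share of all genes was not counted. The 1.00 that separated Eff from Ctrl for Socs1 in replicate 1 was 0.06 in replicate 2. The block added no call, against 2.67% of genes called with it.

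After stimulation, 3 members passed the test when the replicate number was used as a block, against 6.97% of all genes. Socs2 was 2.09-fold lower in LPSEff than in LPS (-1.07 ± 0.31, adjusted p = 0.234 without the block, and 0.0154 with it). Socs7 was 1.51-fold lower (-0.60 ± 0.18, adjusted p = 0.26, and 0.0318 with the block). Socs5 was 1.75-fold higher (0.81 ± 0.31, adjusted p = 0.419, and 0.0332 with the block). Groups did not overlap for any of the 3, nor for Cish, which was not called. Without any difference, 2 samples against 2 lie apart with a probability of 0.333, and the share of all genes was not counted. The 3 were named for their values in these same samples, so the lack of overlap adds no support. edgeR and DESeq2 with the block each called 3 members too. Of all 16309 genes, edgeR with the block called 715 higher and 518 lower here, and DESeq2 with the block 606 higher and 476 lower.

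The agreement between the replicate numbers differed among these genes. Socs7 was lower in the efferocytic sample by 0.54 in replicate 1 and 0.66 in replicate 2 on the log2 scale, and Socs5 was higher by 0.75 and 0.87. Socs2 was lower by 0.58 in replicate 1 and by 1.55 in replicate 2, and without LPS replicate 2 its log2 fold change was -0.57 (adjusted p = 0.684). The dendritic cell marker sum, mostly Itgax and Ccr7, fell in the same direction as Socs2, and the fibroblast marker sum rose in the same direction as Socs5. Of the 11 fibroblast markers tested, 7 were called higher and 0 lower, though Pdgfrb was lower (246 and 245 in LPS, 82.3 and 157 in LPSEff). The fibroblast sum also rose in Eff vs Ctrl, where Socs5 was at 0.33 ± 0.31 and not called. The part of cells with these markers was not tested. Socs1 (0.14 ± 0.30), Socs3 (0.41 ± 0.38), Cish (-0.25 ± 0.17), Socs4 (-0.44 ± 0.24) and Socs6 (0.13 ± 0.22) had adjusted p-values from 0.618 to 0.944 without the block. The 95% interval of Socs1 ran from -0.55 to 0.83, and from -0.34 to 0.62 with the block. That of Socs3 ran from -0.47 to 1.29, and from 0.07 to 0.76 with the block, where it was not called after adjustment (adjusted p = 0.156).

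**Figure D4:**
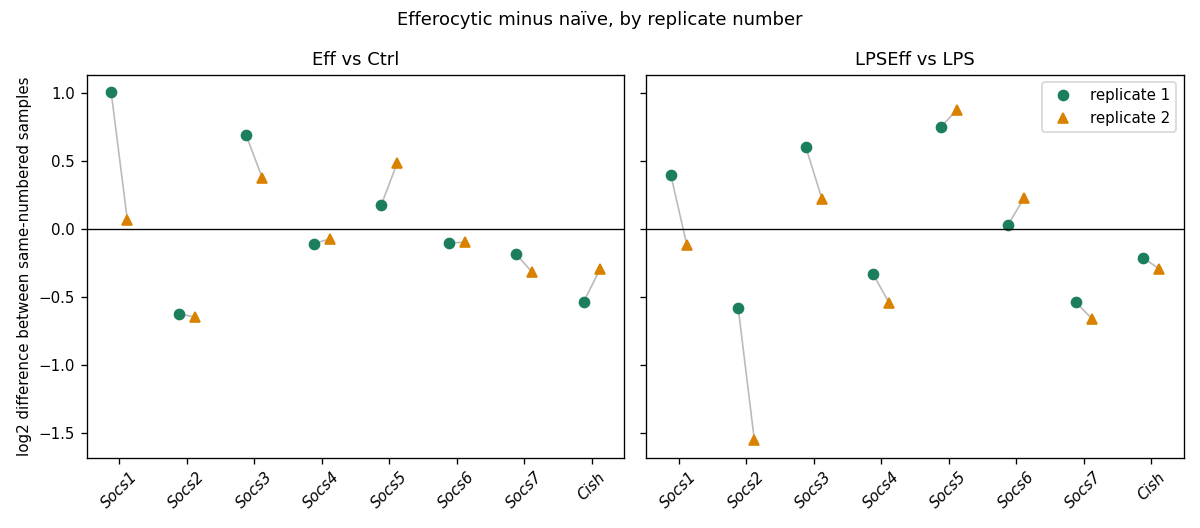
Log2 difference between the efferocytic and the naïve sample of the same replicate number (vertical axis, log2 of normalized count + 1) for each SOCS gene, without stimulation (left) and with LPS/IFNγ (right). Circles are replicate 1 and triangles replicate 2. In the right panel Socs5 lies at 0.75 and 0.87, Socs7 at -0.54 and -0.66, and Socs2 at -0.58 and -1.55.

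Genes of the JAK-STAT pathway and around it give the setting of these changes. They are called JAK-STAT genes here, but they include STAT target genes and genes of other pathways, such as Tlr4, Tnfaip3 and Met. Their counts are therefore not those of the pathway alone. Of 116 listed genes other than the SOCS members, 112 were tested, and 55 rose and 6 fell in LPS vs Ctrl, with a median log2 fold change of 0.88 against -0.01 for all genes, of which 12.4% were called higher and 11.6% lower. In LPSEff vs Eff 54 rose and 4 fell (median 0.89), against 10.7% and 8.95% of all genes. Both counts of rises include ligands that passed the filter only through their stimulated samples, such as Il12a and Csf3, which raises them. The counts of the single lists below are all for LPS vs Ctrl and stand against the same 12.4% and 11.6%. The lists were chosen with earlier results of these samples known.

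Of 16 cytokine ligands listed, 12 passed the filter on low values, and all 12 were called higher, with a median of 4.89. Those left out were Ifng, Ifnb1, Il4 and Tslp. Some ligands, such as Il12a (0 and 0 in Ctrl, 138 and 278 in LPS) and Csf3, passed only through their stimulated samples. For these a rise was in part fixed in advance, which raises the count and the median. Il6, the gp130 ligand restrained by SOCS3, went from 13.5 ± 2.96 normalized counts in Ctrl to 9337 ± 1749 in LPS (SD, n = 2), and Csf3, which encodes G-CSF, from 4.39 ± 4.57 to 3204 ± 3360. Of the 24 receptor genes, 8 rose and 3 fell. Il12rb1 (log2 fold change 3.22, adjusted p = 0.00193) and Il15ra (3.09, adjusted p = 0.000297) rose most, and Il6ra, the ligand-binding chain for IL-6, fell by 2.64 (adjusted p = 0.000751).

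Among the 11 kinases and STATs, 9 rose, Stat2 among them (2.63 ± 0.17, adjusted p = 5.39e-05). Of the 8 SOCS box partners (elongins, cullins, RING and NEDD8 components), 1 was called higher, near the share of all genes, the NEDD8-conjugating enzyme gene Ube2f (0.82 ± 0.20, adjusted p = 0.0214). Of 17 other inhibitors 7 rose and 1 fell, with Usp18, a brake on type I interferon receptors, at 4.19 ± 0.22 and Tnfaip3, the NF-κB inhibitor A20, at 3.77 ± 0.29. Of 12 docked signalling proteins 1 rose, Met, and 1 fell, Kit.

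STAT target genes were counted in the same way. Of 10 STAT3 target genes other than Socs3, 6 rose (median 0.90), led by Il1rn (4.01 ± 0.32) and Bcl3 (2.50 ± 0.41). Of 10 STAT5 target genes other than Cish and Socs2, 3 rose and 1 fell (median 0.61), with Ccnd2 at 2.91 ± 0.47, Osm at 2.09 ± 0.50 and the fall in Ccnd1, by 2.29. The differences in count between the lists were not tested.

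**Figure D5:**
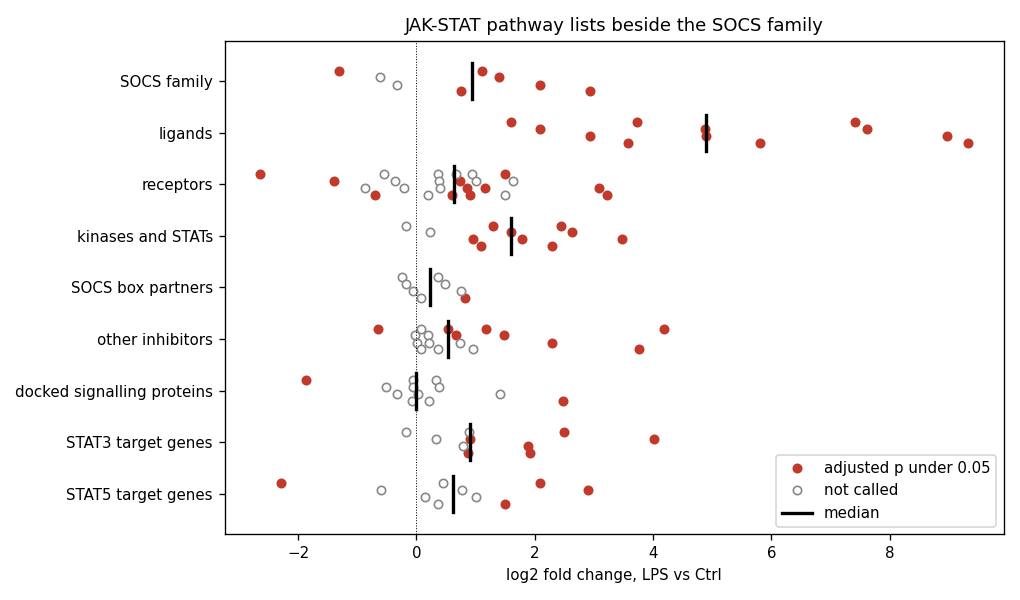
Log2 fold change in LPS vs Ctrl (horizontal axis) of the SOCS family and of the tested genes in 8 pathway lists (rows), with filled points for an adjusted p under 0.05, open points for genes not called and a bar at each median. Ligands (median 4.89, some tested only because of their stimulated samples) lie furthest to the right, and the SOCS box partners lie near 0 (0.23).

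With efferocytosis, none of the 112 genes was called in limma in Eff vs Ctrl or in LPSEff vs LPS, while with the replicate block 3 were higher and 9 lower in Eff vs Ctrl (2.67% of all genes were called) and 5 higher and 8 lower in LPSEff vs LPS (6.97%). The lower genes in Eff vs Ctrl included Il12b, a subunit of IL-12 (-1.53 ± 0.15, adjusted p = 0.000531 with the block), and Stat2 (-0.80 ± 0.13, adjusted p = 0.0106 with the block), and the higher ones included Il1rn, the IL-1 receptor antagonist (1.62 ± 0.18, adjusted p = 0.0012 with the block). DESeq2 without the block called 5 of the 112 in each of the 2 comparisons, against 1.25% of all genes in Eff vs Ctrl, while for LPSEff vs LPS the share was 2.26%.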

How the data were processed

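Total RNA-seq of 8 BMDM samples (4 groups, n = 2) was analysed. Per the study's methods and the submitters' processing notes, rRNA was depleted, adapters were removed with cutadapt and remaining rRNA reads with Bowtie2, reads were mapped to mm39 with STAR and counted per gene with HTSeq in its default mode, and DESeq2 was used by the authors. The deposited file gives each gene a signal, its normalized count, which the authors scaled with 1 size factor per sample. In each sample 100% of values were whole multiples (tolerance 0.01) of the smallest, which gave whole reads, from 3481288 to 12020918 per sample. A count of 3 reads is worth 1.73 to 5.71 normalized counts, and such floors cover counting error only.

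Of 55359 gene IDs, 54749 (98.9%) were named from GENCODE vM39 on GRCm39. Tests were made in R 4.3.3 with limma (version 3.58.1), with trend, on log2(normalized count + 1) over 16309 genes with a mean of at least 10, all samples in 1 fit with a mean per group (4 residual degrees of freedom) and Benjamini-Hochberg adjustment over all tested genes. Log2 fold changes are on that scale, which understates those of low genes. An exact permutation test of 2 against 2 samples cannot give a p under 0.333 and was not used. Alternatives were pseudocounts of 0.5 and 5, no filter or a mean of at least 50, only the groups compared, a replicate block (3 residual degrees of freedom), equal totals, quantile normalization, count tests of the whole reads by edgeR (version 4.0.16, TMM) or DESeq2 (version 1.42.0), and each sample left out. edgeR and DESeq2 with the block, exon-union lengths and the motif GAAANNGAAA were added after the values or sequences had been seen. The scripts were tested on simulated data.

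The replicate numbers come from the sample names. Differences between samples 1 and 2 correlated across genes (no independent replicates) with r = 0.404 to 0.595 over the 6 pairs of groups, so the numbers were treated as pairing, although no source says what they share. The members and lists were chosen with earlier results of these data known. Besides the members, the text names the 2 largest rises and falls of each list among genes called in LPS vs Ctrl and, per list, genes called with efferocytosis. Some listed genes and 1 list are not reported here. Gm17041 and the genes named as called with the block in Eff vs Ctrl were chosen after their values were seen.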

Additional observations from a re-analysis of the deposited data

How the results depend on the processing

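Counts of called genes moved as follows, with the main count first and the cause not tested. For LPSEff vs LPS, 0 SOCS members became 3 with the replicate block, 1 in DESeq2 (Socs2), 3 in edgeR with the block and 3 in DESeq2 with the block. Calls over all genes moved there too, from 0.773% to 6.97% with the replicate block and 2.26% in DESeq2. Of 16309 genes, edgeR with the block called 715 higher and 518 lower, and DESeq2 with the block 606 and 476. For Eff vs Ctrl, 0 JAK-STAT genes became 12 with the replicate block, 5 in DESeq2, 9 in edgeR with the block and 15 in DESeq2 with the block. Over all genes the calls went from 0.251% to 2.67% with the replicate block and 1.25% in DESeq2. Of 16309 genes, edgeR with the block called 270 higher and 159 lower, and DESeq2 with the block 318 and 201. For LPSEff vs LPS, 0 became 13 with the replicate block, 5 in DESeq2, 16 in edgeR with the block and 16 in DESeq2 with the block. These stand against the calls over all genes given above for that comparison. It became 1 each with a pseudocount of 5, without the filter and with quantile normalization. Over all genes those 3 settings called 140 higher and 7 lower, 155 and 7, and 148 and 17. Leaving out each sample gave 5 to 6 SOCS members in LPS vs Ctrl, 1 to 6 in LPSEff vs Eff (5 with all samples) and 0 in the efferocytosis comparisons, and 42 to 58 and 44 to 59 JAK-STAT genes with stimulation. When a group is left with 1 sample, it is assumed to vary like the others. Fewer of all genes were then called in each comparison with that group. Of 792 values of single members under alternatives, 733 kept direction and side of the threshold, 28 gained a call, 21 lost one and 10 changed sign. All 10 came from leaving out a sample and none was a call. Over the samples left out, the range was -0.56 to 0.31 for Socs5 in LPSEff vs Eff (highest without Eff replicate 2), -0.19 to 0.0067 for Socs4 in Eff vs Ctrl (highest without Eff replicate 1), -0.11 to 0.77 for Socs5 there (lowest without Eff replicate 2), -0.22 to 0.50 for Socs1 in LPSEff vs LPS (lowest without LPSEff replicate 1) and -0.081 to 0.34 for Socs6 there (lowest without LPSEff replicate 2). For the interaction it was -0.93 to 0.063 for Socs2 (highest without LPS replicate 2) and -0.59 to 0.36 for Socs3, positive without Ctrl replicate 2, LPS replicate 1, Eff replicate 1 or LPSEff replicate 2. Without a filter on low values, Socs7 was not called in LPSEff vs Eff (0.77, adjusted p = 0.059), and with only the groups compared in the fit Cish was not called in LPS vs Ctrl (0.76, adjusted p = 0.0554). The replicate block changed no call of a member other than those given with it above. Depth limits the members little, since each had at least 100 reads in every sample, and 2 samples a group limit all comparisons.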

Other observations

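For each SOCS gene, the genes with the most similar profile were sought by Pearson's r of log2(normalized count + 1) over the 8 samples, among 10826 genes with a mean of at least 50. These values are descriptions. The samples fall into stimulated and unstimulated groups, share their size factors and replicate numbers, and so high values of r are common. The genes nearest to Socs1 were Rhbdf2, an inactive rhomboid protein needed for the release of TNF (r = 0.996), and Tspo, a mitochondrial outer membrane protein (0.996). Tspo had 1443 and 1571 normalized counts in Ctrl, 4043 and 3807 in LPS, against 1958 and 1562 in Eff and 4734 and 3225 in LPSEff, with the higher LPSEff value in replicate 1, as for Socs1. Nearest to Socs3 were 1700034H15Rik (0.993) and Vamp2, a vesicle SNARE (0.992), and nearest to Cish was Alpk1, the kinase that senses bacterial ADP-heptose (0.994).

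Socs2 was nearest to Glipr2 (0.995) and Csrp1, a LIM-domain protein (0.994). Both showed the high value in LPS replicate 2, at 3228 normalized counts for Glipr2 against 1937 in LPS replicate 1, and 3235 for Csrp1 against 1873. Socs7 was nearest to Khnyn, a cofactor of the antiviral protein ZAP (0.993), and Akna (0.992). Socs4 was nearest to Mical1 (0.992) and Slc25a45 (0.991), and Socs6 to Prkar2a, a regulatory subunit of protein kinase A (0.996), and Lpar5, a receptor for lysophosphatidic acid (0.995). Socs5 had the lowest values, 0.987 with Tanc2 and 0.965 with Itga6, an integrin chain. Within the family, r was 0.969 between Socs1 and Socs3, 0.947 between Socs2 and Socs7, 0.929 between Socs7 and Cish, and -0.980 between Socs1 and Socs6.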
